A study of Arabidopsis thaliana with 3 samples.

Results

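The 10 genes described here encode WRKY transcription factors with known roles in plant immunity: WRKY18, WRKY22, WRKY25, WRKY29, WRKY33, WRKY40, WRKY46, WRKY54, WRKY60 and WRKY70. They were picked by name and AGI locus identifier. The rule used no measured value, though earlier results of these data were known when it was set, and all 10 were among the 27416 genes of the deposited tables. The RNA came from whole seedlings of wild-type Arabidopsis thaliana, accession Col-0, at 3 weeks of age, kept in long days (16 h light, 8 h dark) on MS plates at 23 ± 2 °C. A single group of 3 libraries, which carry the numbers 4, 5 and 6, makes up the series, and the labels name no pathogen, elicitor or other treatment. The values are thus levels in plants with no stated challenge, and no comparison between conditions could be made. The labels do not say whether the libraries came from separate batches of plants, so the spread between them may be technical.

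WRKY proteins are plant transcription factors that share a DNA-binding domain with a conserved run of amino acids, WRKYGQK, next to a zinc finger. They bind W-boxes, short promoter elements built around the letters TTGAC, which also stand in the promoters of many WRKY genes. Recognition of microbial patterns or of pathogen effectors activates MAP kinase cascades, calcium-dependent kinases and salicylate signalling, and these routes act on WRKY factors both by phosphorylation and through their transcription. In Arabidopsis, WRKY22 and WRKY29 are known from the cascade downstream of the flagellin receptor, WRKY33 from camalexin synthesis and resistance to necrotrophic fungi, and WRKY70 from the balance of salicylate and jasmonate responses.

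The stretch of coding sequence that gives the family its name is shown for every member, since it defines the factors and shows how far their genes have diverged at the most conserved place. Capitals mark the codons of WRKYGQK, and the lower-case letters are the 6 bases on either side. The sequences were read from the RefSeq annotation on assembly TAIR10.1, in which every stretch lies within a single coding exon.
WRKY18, chr4:15384310-15384342, plus strand: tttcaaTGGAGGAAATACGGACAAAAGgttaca
WRKY40, chr1:30384783-30384815, plus strand: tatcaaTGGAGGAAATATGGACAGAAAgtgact
WRKY60, chr2:10630637-10630669, plus strand: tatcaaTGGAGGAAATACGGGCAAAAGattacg
WRKY22, chr4:523497-523529, minus strand: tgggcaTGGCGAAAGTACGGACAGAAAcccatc
WRKY29, chr4:12292485-12292517, plus strand: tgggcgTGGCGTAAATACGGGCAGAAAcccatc
WRKY25 first domain, chr2:12904355-12904387, minus strand: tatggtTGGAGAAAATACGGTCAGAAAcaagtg
WRKY25 second domain, chr2:12903786-12903818, minus strand: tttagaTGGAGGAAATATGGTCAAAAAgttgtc
WRKY33 first domain, chr2:16109352-16109384, plus strand: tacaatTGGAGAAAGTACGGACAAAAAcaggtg
WRKY33 second domain, chr2:16109976-16110008, plus strand: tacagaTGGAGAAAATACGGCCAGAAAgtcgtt
WRKY46, chr2:19044307-19044339, minus strand: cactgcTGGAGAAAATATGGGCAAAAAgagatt
WRKY54, chr2:17001372-17001404, minus strand: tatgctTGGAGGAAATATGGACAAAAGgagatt
WRKY70, chr3:20909754-20909786, minus strand: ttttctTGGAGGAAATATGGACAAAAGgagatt

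WRKY25 and WRKY33 are group I factors with a pair of WRKY domains each, and the others have 1 domain, which makes 12 copies in 10 genes. Among these copies 14 of the 21 capital bases were alike throughout and 7 varied, 6 of them at the last base of a codon. WRKY54 and WRKY70 carried the same 21 bases, and all other copies differed from each other. The predicted proteins ran from 271 residues in WRKY60 to 519 in WRKY33. Outside this core the transcripts were distinct. In 8 of the 10 genes no 50-base word of the annotated transcripts occurred in another gene on either strand. WRKY29 shared 15.03% of its words, all with AT4G23560, whose end overlaps it on the opposite strand and which was at 0 FPKM in the tables. WRKY40 shared 2.43%, with 29 words in AT3G32090 on chromosome 3 (0 FPKM) and 2 words in its overlapping neighbour AT1G80850 (7.17 FPKM). WRKY33 overlaps 2 annotated genes on the opposite strand: the long noncoding RNA AT2G08965, not analysed here, by 272 bases of which 23 are exonic in both, and AT2G38480 (4.82 FPKM) by 26 bases. Reads in these stretches are less certain, because whether the authors counted by strand is not given in the sources used here.

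The 10 factors spanned low to moderate levels. WRKY70, a group III factor that acts downstream of the salicylate receptor NPR1, had the highest level, at 12.9 ± 0.963 FPKM (SD, n = 3). WRKY46, a group III factor known from basal resistance and from drought and stomatal responses, had the lowest, at 0.288 ± 0.0714 FPKM. FPKM is the number of fragments per kilobase of gene model and per 1000000 assigned fragments. In these libraries of 19921241, 19905762 and 19892527 reads, 1 read was worth between 0.0264 FPKM in WRKY33 and 0.0538 FPKM in WRKY29. In bulk tissue a low level in few cells and in many cannot be told apart.

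**Figure D1:**
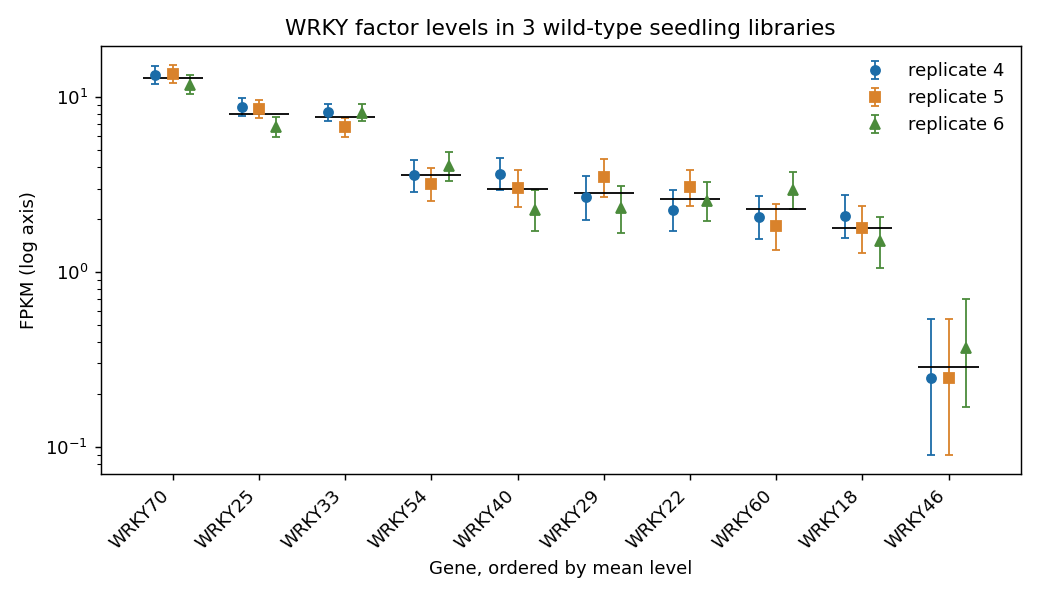
FPKM (log axis) of the 10 factors, ordered by mean level, in replicates 4, 5 and 6. Points are libraries, vertical bars are exact 95% Poisson intervals of the reads, and horizontal lines are means, which run from 12.9 FPKM for WRKY70 to 0.288 FPKM for WRKY46.

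Of the 10 factors 9 reached 1 FPKM or more in every library, a level passed by 63.0% of the 27197 nuclear protein-coding genes. WRKY46 was the exception. The nuclear set includes identifiers without a match in the annotation, whose class is not known. The median factor had 2.91 FPKM and the median nuclear gene 4.71 FPKM. On the log2(FPKM + 1) scale the median of the factors lay -0.56 from that of nuclear genes, with -0.48, -0.47 and -0.60 in replicates 4, 5 and 6. WRKY70, WRKY25 and WRKY33 were above the median nuclear gene, with 68.3%, 58.7% and 57.9% of nuclear genes below them, and the other 7 were below it. These 3 genes held 63.6 ± 1.05% of the summed FPKM of the 10.

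The order of the means was WRKY70, WRKY25, WRKY33, WRKY54, WRKY40, WRKY29, WRKY22, WRKY60, WRKY18 and WRKY46. Neighbours in this order were taken to differ beyond their spread where their ranges over the 3 libraries did not overlap, and 3 of 9 neighbouring pairs did so. WRKY70 lay above WRKY25, WRKY33 above WRKY54, and WRKY18 above WRKY46. The positions of the factors from WRKY54 to WRKY18 are therefore less certain, although WRKY54 itself did not overlap WRKY22, WRKY60 or WRKY18. The order also rests on the authors' gene lengths, which fall short of the annotated ones unevenly. They were 934 of 1393 bases in WRKY29 and 1219 of 1326 in WRKY22. WRKY22 had more reads than WRKY29 in every library, with 55, 74 and 62 against 50, 65 and 43. Of all 45 pairs 35 did not overlap. Since 0.25 is the smallest two-sided p that an exact sign-flip test can reach with 3 libraries, no p-value is given for these differences.

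Group III holds WRKY46, WRKY54 and WRKY70, which are known to act together in brassinosteroid-regulated growth and drought responses, and of which WRKY54 and WRKY70 also restrain salicylate accumulation and leaf senescence. WRKY70 (AT3G56400, chr3:20908711-20910623, minus strand, 3 exons) had 13.4, 13.6 and 11.8 FPKM in replicates 4, 5 and 6. WRKY54 (AT2G40750, chr2:17000419-17002528, minus strand, 3 exons) had 3.57, 3.19 and 4.02 FPKM. WRKY46 (AT2G46400, chr2:19043411-19044955, minus strand, 3 exons) had 0.246, 0.247 and 0.370 FPKM. The ranges of the 3 genes were far apart, in the same order in every library. WRKY70 exceeded WRKY54 by 1.60 ± 0.23 on the log2(FPKM + 1) scale, which is 3.64 ± 0.662 times as a ratio of FPKM (n = 3 libraries). The authors' lengths were 1111 of 1470 annotated bases in WRKY70 and 1337 of 1432 in WRKY54. At the annotated lengths this ratio would be smaller. WRKY54 exceeded WRKY46 by 1.83 ± 0.071, or 12.8 ± 1.81 times. The log2 scale narrows differences that involve a gene as low as WRKY46, which rests on 6, 6 and 9 reads. The exact 95% Poisson interval of its level was 0.0905 to 0.536 FPKM in replicate 4 and 0.169 to 0.703 FPKM in replicate 6, so no difference between libraries was detectable at this depth.

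The other genes listed here for group III were mostly near 0. Of these 13 listed genes only WRKY70, WRKY54 and WRKY41 (1.25 ± 0.0548 FPKM) passed 1 FPKM in every library, beside 63.0% of all nuclear genes. The other 10 listed genes stayed under 0.5 FPKM throughout. WRKY53, a regulator of leaf senescence that acts with WRKY46 and WRKY70 in basal resistance, had 0.431, 0.332 and 0.465 FPKM. WRKY30, a factor induced early by stress and pathogens, had 0, 0.0390 and 0 FPKM. WRKY55 (0.0411 ± 0.0356 FPKM) carries the locus number next to that of WRKY54, AT2G40740, and was far below it. WRKY64, WRKY66 and WRKY67 gave no read, and a count of 0 allows levels of up to 0.154, 0.184 and 0.173 FPKM (3 reads in 1 library at the annotated length).

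**Figure D2:**
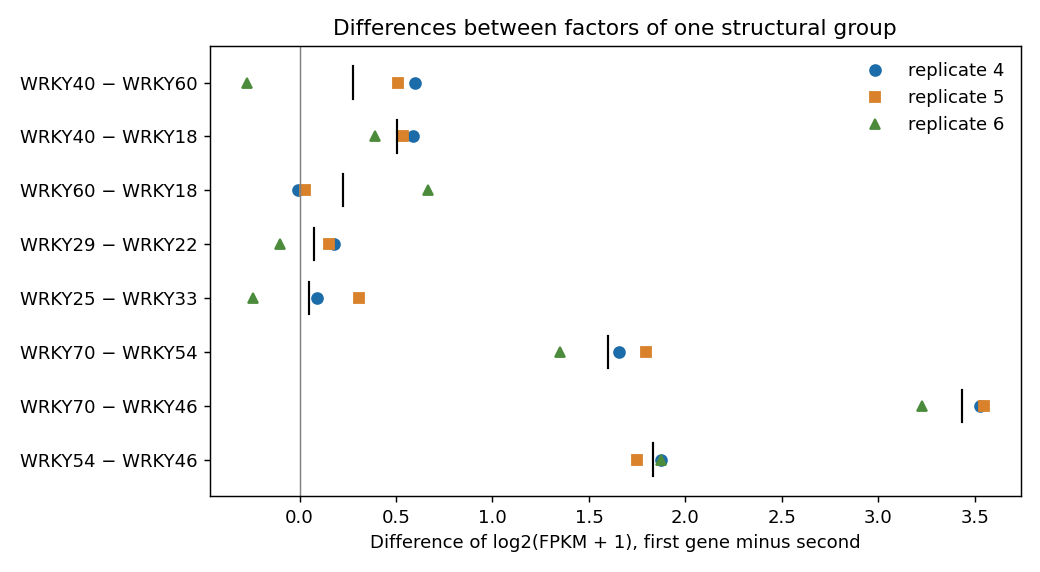
Difference of log2(FPKM + 1), first gene minus second, between factors of the same structural group. Points are replicates 4, 5 and 6 and vertical marks are means. The pairs of WRKY46, WRKY54 and WRKY70 lie between 1.35 and 3.55, and of the other 5 pairs only WRKY40 and WRKY18 stay on one side of 0.

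WRKY25 and WRKY33 are group I factors. WRKY33 is a substrate of the kinases MPK3 and MPK6 and is held by MPK4 through the linker protein MKS1, and WRKY25 is known from heat and salt tolerance and as a restraint on salicylate-dependent defence. WRKY25 (AT2G30250, chr2:12903208-12905338, minus strand, 5 exons) had 8.80, 8.56 and 6.75 FPKM. WRKY33 (AT2G38470, chr2:16108235-16110766, plus strand, 5 exons) had 8.21, 6.74 and 8.17 FPKM. WRKY25 was the higher in replicates 4 and 5 and WRKY33 in replicate 6, and their ranges overlapped. The difference, WRKY25 minus WRKY33, was 0.05 ± 0.28 on the log2 scale, less than the spread between libraries, and the ratio of FPKM ran from 0.827 to 1.27. WRKY26, the third factor of this clade and a partner of both in heat tolerance, had 9.77, 9.90 and 8.06 FPKM, and its range overlapped those of both. Library by library, WRKY26 was above WRKY25 in each, and above WRKY33 in replicates 4 and 5 but not in replicate 6.

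WRKY22 and WRKY29 are group IIe factors placed at the end of the MAP kinase cascade that follows flagellin perception. WRKY29 (AT4G23550, chr4:12291632-12293367, plus strand, 3 exons) had 2.69, 3.50 and 2.31 FPKM. WRKY22 (AT4G01250, chr4:522530-524249, minus strand, 3 exons) had 2.26, 3.05 and 2.56 FPKM. Both were highest in replicate 5, and their ranges overlapped. The difference, WRKY29 minus WRKY22, was 0.07 ± 0.15 on the log2 scale, within the spread between libraries. The length behind the deposited values was 934 bases for WRKY29 against 1393 in the RefSeq annotation, the lowest share of any factor with a single annotated transcript. All 8 listed genes of group IIe passed 1 FPKM in every library, beside 63.0% of all nuclear genes. The highest were WRKY65 (12.3 ± 1.13 FPKM), WRKY16 (7.86 ± 0.0681 FPKM) and WRKY69 (6.98 ± 0.584 FPKM). The lowest was WRKY27 (1.34 ± 0.176 FPKM), a close relative of WRKY22.

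WRKY18, WRKY40 and WRKY60 make up group IIa. They form complexes with themselves and with each other, bind W-boxes, and are known to modulate abscisic acid responses and resistance to powdery mildew and Pseudomonas syringae. WRKY40 (AT1G80840, chr1:30383561-30385499, plus strand, 4 exons) had 3.65, 3.03 and 2.27 FPKM. WRKY60 (AT2G25000, chr2:10629662-10631413, plus strand, 4 annotated transcripts) had 2.08, 1.83 and 2.95 FPKM. WRKY18 (AT4G31800, chr4:15382777-15385100, plus strand, 3 annotated transcripts) had 2.098, 1.777 and 1.495 FPKM. WRKY40 and WRKY18 were both highest in replicate 4 and lowest in replicate 6, while WRKY60 was highest in replicate 6. WRKY40 exceeded WRKY18 in 3 of 3 libraries, by 0.50 ± 0.10 on the log2 scale, and their ranges did not overlap. WRKY60 overlapped both, and its share of the summed FPKM of the group was 26.5%, 27.6% and 43.9% in replicates 4, 5 and 6. Of the group WRKY40 rests on 87, 72 and 54 reads, WRKY60 on 50, 44 and 71 reads, and WRKY18 on 52, 44 and 37 reads. The authors' length for WRKY18, 1244 bases, was shorter than the 2027 bases that its 3 annotated transcripts cover together. Its level, and its passing of 1 FPKM in every library, depend on that length.

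The spread between libraries differed among the factors. The coefficient of variation was lowest in WRKY70 at 7.46% and highest in WRKY60 at 25.8%. The highest library exceeded the lowest by 1.61 times in WRKY60 and WRKY40, 1.51 times in WRKY29 and 1.502 times in WRKY46, the last at 9 against 6 reads, and by less than 1.5 times in the other 6 factors. WRKY60, WRKY40 and WRKY29 are 3 of the 6 factors with a mean of 40 to 100 reads. Among 1620 nuclear genes in that range whose read counts could be recovered, 13.6% passed this fold. Genes for which several lengths gave whole reads were left out. With 6 genes this is a description, and the fold and the read range were chosen after the values were seen.

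The recovered reads are the same values in another form, and they singled out partly different factors. The variance of the 3 read counts divided by their mean is 1 on average under Poisson counting alone. Its mean was 2.67 over the 9 factors with 30 to 400 reads, and 1.41 over 6168 nuclear genes with recovered reads in the same range. The medians, to which that average of 1 does not apply, were 2.40 and 0.969. Of those nuclear genes 90% lay below 3.27. WRKY25 (5.04), WRKY40 (3.85), WRKY60 (3.65) and WRKY33 (3.46) were above that bound, which pools genes of unlike read numbers. Of these WRKY25 and WRKY33 had stayed under 1.5 times between libraries, while WRKY29, which passed it, was below the bound at 2.40. WRKY54 (1.27) and WRKY18 (1.27) were near the Poisson average. Replicate 6 was the lowest library for 5 of the 10 factors and the highest for 3. The matching shares over all nuclear genes were not computed, so these counts show nothing particular to the factors. The summed FPKM of the 10 was 47.0, 45.5 and 42.7 in replicates 4, 5 and 6, which was 13.97%, 13.41% and 12.65% of the WRKY family sum. What sets the libraries apart is not given by the labels and was not tested. With 3 libraries of 1 group there is no pattern across conditions, and no genes of like pattern are named.

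Within the whole family 9 of the 10 factors stood in the upper part of the ranking, and none among the highest 9 genes. The reference names 72 WRKY genes, all of them in the tables, and the 10 factors held 13.3 ± 0.662% of their summed FPKM. WRKY70 ranked 10 of 72, WRKY25 15, WRKY33 17 and WRKY46 55, with the other 6 factors between rank 26 and rank 35. The median of the 10 factors was 2.91 FPKM and that of the other 62 genes 1.15 FPKM. Beside 63.0% of all nuclear genes, 9 of the 10 factors but 31 of the other 62 genes passed 1 FPKM in every library. The highest were WRKY3 at 25.4 ± 1.18 FPKM, WRKY7 at 21.9 ± 1.51 FPKM and WRKY39 at 21.4 ± 0.879 FPKM. WRKY10 and WRKY68 gave no read, as did WRKY64, WRKY66 and WRKY67. At the annotated lengths this leaves room for up to 0.103 FPKM in WRKY10 and 0.0975 FPKM in WRKY68. WRKY7 and WRKY39 belong to group IId, whose members bind calmodulin.

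**Figure D3:**
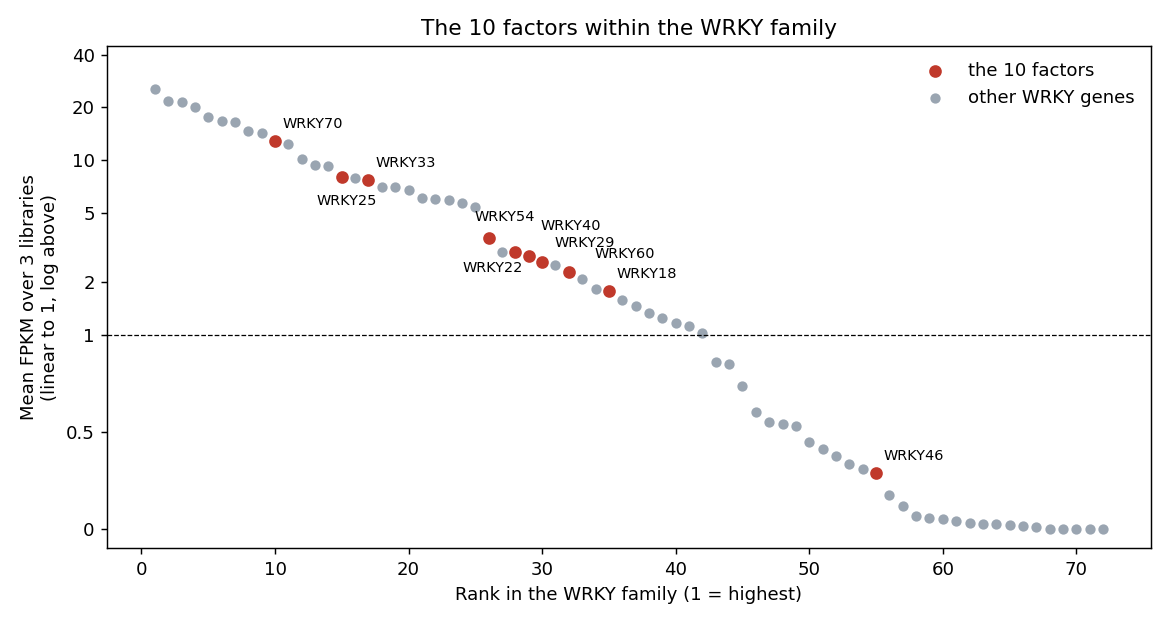
Mean FPKM over 3 libraries of all 72 WRKY genes, by rank, on an axis that is linear to 1 FPKM and logarithmic above. The 10 factors are in red, and 9 of them lie above the dashed line at 1 FPKM, between rank 10 and rank 35.

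The genes around the factors in immune signalling were compared by level. Among 16 kinases and partner proteins 15 passed 1 FPKM in every library, beside 63.0% of all nuclear genes, with a median of 10.1 FPKM. The calcium-dependent kinase CPK5, which phosphorylates WRKY factors after immune perception, had 37.6 ± 0.396 FPKM. The MAP kinases MPK6 and MPK3, which phosphorylate WRKY33, had 34.4 ± 0.786 and 33.1 ± 0.612 FPKM. MKS1, the linker between MPK4 and WRKY33, had 8.29, 6.81 and 9.22 FPKM. MPK11 was the exception, at 0.0884 ± 0.0689 FPKM. MKS1 and MPK11 were named after their values were seen.

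Of 20 genes of the salicylate pathway 13 passed 1 FPKM in every library, a share near the 63.0% of all nuclear genes, and the median was 4.44 FPKM. The highest were the salicylate receptor NPR4 (27.0 ± 0.607 FPKM), the NPR1 partner TGA3 (20.1 ± 0.305 FPKM) and the receptor NPR1 (15.2 ± 0.337 FPKM). No read was counted for the pathogenesis-related genes PR1 and PR2, late outputs of salicylate signalling. At the annotated lengths this leaves room for up to 0.167 and 0.102 FPKM. WRKY70, which acts downstream of NPR1, had 12.9 FPKM in the same libraries.

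Genes known to be regulated by the factors, or to act with them, stood at contrasting levels. Of 13 such genes 5 passed 1 FPKM in every library, beside 63.0% of all nuclear genes, and the median was 0.0733 FPKM. BES1, the brassinosteroid transcription factor that works with WRKY46, WRKY54 and WRKY70, had 197 ± 1.45 FPKM. The ethylene synthesis gene ACS6, a target of WRKY33, had 5.50 ± 0.230 FPKM, and the abscisic acid regulator ABI5, a target of group IIa, had 4.13 ± 0.245 FPKM. ABI4, another target of group IIa, gave no read, which at the annotated length leaves room for up to 0.113 FPKM. The following genes were named after their values were seen. FRK1, a marker gene activated through WRKY22 and WRKY29, had 0.0186, 0 and 0 FPKM, while WRKY22 and WRKY29 were above 2 FPKM. The camalexin synthesis genes, targets of WRKY33, were unlike each other: PAD3, the enzyme of the last step, had 0.333, 0.363 and 0.182 FPKM, and CYP71A13, an earlier enzyme, had 3.32, 3.51 and 4.37 FPKM. CYP71A12, a close copy of CYP71A13 that could share reads with it, had 0, 0 and 0.0894 FPKM.

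**Figure D4:**
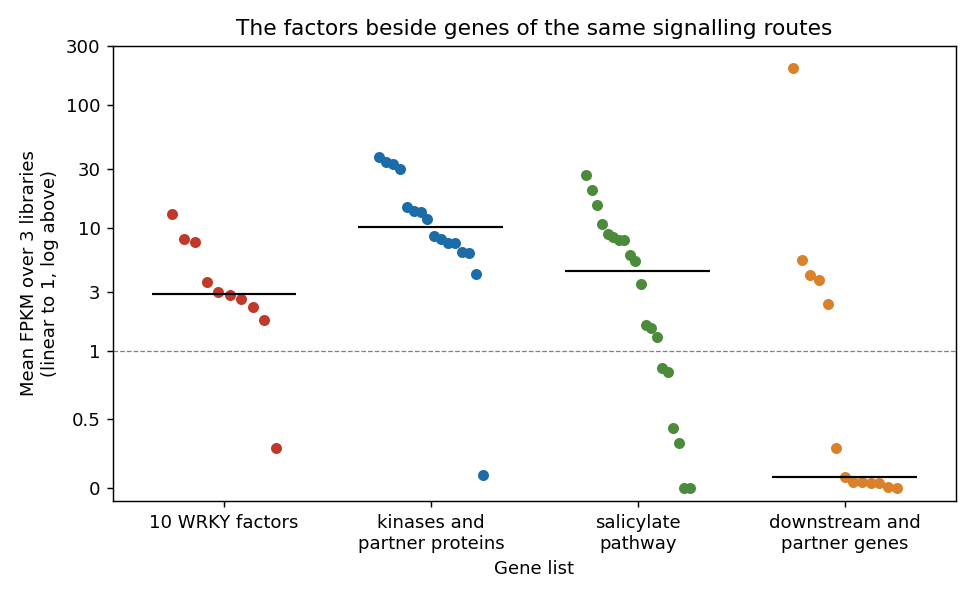
Mean FPKM over 3 libraries of the 10 factors and of 3 gene lists, on an axis that is linear to 1 FPKM and logarithmic above. Points are genes and black lines are medians, at 2.91 FPKM for the factors, 10.1 for kinases and partner proteins, 4.44 for the salicylate pathway and 0.0733 for downstream and partner genes.

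Promoter windows of 3 members are shown because WRKY genes are themselves known targets of WRKY factors: WRKY70 has the highest level, WRKY33 is known to bind its own promoter, and WRKY29 holds the most copies of the W-box core. Each window runs from 250 bases before to 50 bases after the annotated gene start, on TAIR10.1 with RefSeq gene starts, written in the direction of the gene. Capitals mark TTGAC or its complement GTCAA.
WRKY70 promoter, chr3:20910574-20910873, minus strand: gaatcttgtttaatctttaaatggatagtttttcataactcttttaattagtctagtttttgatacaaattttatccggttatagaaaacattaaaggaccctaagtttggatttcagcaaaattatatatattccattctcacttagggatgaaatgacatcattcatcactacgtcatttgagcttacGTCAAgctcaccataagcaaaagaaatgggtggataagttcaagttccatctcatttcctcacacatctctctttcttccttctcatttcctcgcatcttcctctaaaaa
WRKY33 promoter, chr2:16107985-16108284, plus strand: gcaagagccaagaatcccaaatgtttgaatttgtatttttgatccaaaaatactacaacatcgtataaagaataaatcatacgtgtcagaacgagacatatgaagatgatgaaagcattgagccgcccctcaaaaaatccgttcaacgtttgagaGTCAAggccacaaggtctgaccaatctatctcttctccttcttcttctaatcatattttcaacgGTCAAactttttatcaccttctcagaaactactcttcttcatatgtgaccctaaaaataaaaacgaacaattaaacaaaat
WRKY29 promoter, chr4:12291382-12291681, plus strand: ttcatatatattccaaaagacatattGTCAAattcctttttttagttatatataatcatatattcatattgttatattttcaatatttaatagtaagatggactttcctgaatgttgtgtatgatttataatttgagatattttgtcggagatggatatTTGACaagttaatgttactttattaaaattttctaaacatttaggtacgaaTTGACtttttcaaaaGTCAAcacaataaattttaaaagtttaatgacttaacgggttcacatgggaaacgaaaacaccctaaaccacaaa

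The letters TTGAC, searched on both strands, stood in the windows of 7 of the 10 factors with 13 copies, and in 50.5% of the windows of 27443 nuclear protein-coding genes, at 0.743 copies a window. WRKY29 held 4 copies, WRKY25, WRKY33 and WRKY60 held 2 each, and WRKY40, WRKY46 and WRKY70 held 1 each. The copies of WRKY60 begin at positions 0 and 16, so neither lies before the annotated gene start. The windows of WRKY18, WRKY22 and WRKY54 held none, which says nothing of a factor's binding there. The longer forms TTGACC and TTGACT, which contain the core, were each found in 2 of the 10 windows, against 14.2% and 21.8% of all windows. In the 1000 bases before the gene start all 10 factors held TTGAC, with 34 copies, as did 88.1% of all genes, at 2.30 copies a gene. WRKY40 held the most copies of the 10 in that longer stretch, with 7, and WRKY70 the fewest, with 1. The number of copies did not follow the order of the levels, since the highest factor, WRKY70, and the lowest, WRKY46, both held 1 copy in the short window.

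**Figure D5:**
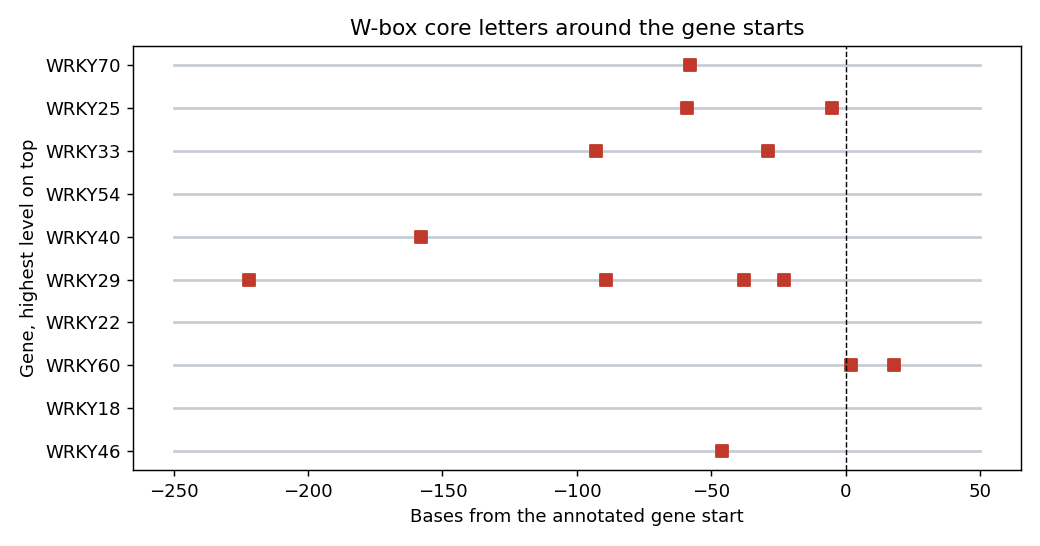
Positions of the W-box core letters, TTGAC on either strand (red squares), from 250 bases before to 50 bases after the annotated start of each factor's gene, with the highest level on top. WRKY29 holds 4 copies, and WRKY54, WRKY22 and WRKY18 hold none.

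The labelled source, whole plants, was set against marker genes. The leaf genes LHCB1.3, RBCS1A and CA1 were at 13523, 10938 and 2329 FPKM, and PYK10, which is abundant in roots and seedlings, was at 1195 FPKM. The root hair genes COBL9 and EXPA7 were at 0.0701 and 0.0162 FPKM, and the floral genes PI and AP3 at 0.749 and 0.0646 FPKM. What share of the RNA came from roots was not determined.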

How the data were processed

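RNA of 3 wild-type libraries was analysed from tables of 1 value per gene. Per the labels' protocols, ribosomal RNA was removed from total RNA and directional libraries were sequenced. TopHat2 2.0.9, Cufflinks 2.1.1 and the build TAIR10 are listed, without roles, in the submitters' processing notes. The file headers name no unit. The deposited values are called FPKM here, since Cufflinks is named, and were made by the authors. RPKM is equally possible, since the values are whole reads over a length and a library total. Library totals were the commonest value implied by genes with 1 read. The reads of a gene were those at the only length, between its coding sequence and its genomic span, that gave whole reads in all 3 libraries within 0.0001 reads plus 1e-09 of the reads. Such a length was found for 16404 of 22189 genes above 0, including all 10 factors. On data simulated for 3 libraries, 100% of 2070 genes with 1 such length gave back their exact reads. The simulated lengths were drawn from the searched range, so this outcome was set in advance. It cannot show that the authors' lengths lie in that range, and for 142 genes no length was found. Intervals and limits of zeros cover counting error only. The limits use annotated lengths, and a shorter length of the authors, as in every factor, would raise them.

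Levels are means ± SD of FPKM, and differences were computed per library on log2(FPKM + 1), a scale that understates differences of low genes. No count model was fitted, as there is 1 group. Names, coordinates and sequences are from RefSeq on TAIR10.1, where 97.5% of identifiers matched. Unmatched identifiers other than those of the organelles were counted among the nuclear protein-coding genes. All 10 factors are named, with the 3 highest genes of each list, genes at 0 throughout, and the paralogs WRKY53, WRKY30, WRKY26 and WRKY27. WRKY41 and WRKY55 were added after their values were seen. The factors and lists were chosen with earlier results of these data known, and structural groups were assigned from the literature. Alternatives were other pseudocounts, thresholds and backgrounds, a rescaling to the summed values, and leaving out each library. Python 3.11.15, pandas 2.3.3, numpy 2.4.6, scipy 1.17.1 and Biopython 1.88 were used.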

Additional observations from a re-analysis of the deposited data

How the results depend on the processing

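No paired analysis was possible because the libraries form 1 group. Leaving out 1 library at a time turned 3 small differences: WRKY25 minus WRKY33 ran from -0.076 without replicate 5 to 0.20 without replicate 6, WRKY40 minus WRKY29 from -0.089 without replicate 4 to 0.16 without replicate 5, and WRKY22 minus WRKY60 from -0.033 without replicate 5 to 0.30 without replicate 6. The 9 factors detected at 1 FPKM stayed 9 at a threshold of 0.5 FPKM and without any 1 library, and were 3 at 5 FPKM. The distance of the factors' median from that of nuclear genes, -0.56, ran from -0.62 without replicate 5 to -0.44 without replicate 6, and the cause was not tested. It was -0.69 with a pseudocount of 0.1 and -0.41 with means in place of medians. Against nuclear genes at a mean of 1 FPKM or more it was -1.81. That filter was not applied to the factors, so WRKY46 was kept and the 2 sets were selected unlike. Rescaled to a common sum of 1000000 over all genes in each library, the factors ran from 0.393 (WRKY46) to 17.6 (WRKY70). Differences that involve WRKY46 grew with smaller pseudocounts: WRKY18 minus WRKY46 was 1.11 with 1 FPKM added, 2.29 with 0.1 and 2.65 with none. Depth limits WRKY46 most, with 21 reads over the 3 libraries.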
